A study of Mus musculus with 6 samples.

Results

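The AP-1 transcription factor family was followed here through 10 genes, Fos, Fosb, Fosl1, Fosl2, Jun, Junb, Jund, Atf3, Maff and Batf, in liver RNA from mice with the G609G allele of Lmna, which encodes lamin A and lamin C. The members were taken by name, as the probe sets annotated with exactly 1 of these symbols. Each of the 10 genes had 1 such probe set, of 35512 on the array, and 0 probe sets named a member jointly with another gene. There were 3 homozygotes (LmnaG609G/G609G knock-in, replicates 1, 3 and 5) and 3 wild-type mice (Lmna+/+, replicates 2, 4 and 6). All 6 were females of the C57BL/6 background, 3 months old, and had been without food for 6 h when they were killed. The allele alters splicing of the Lmna transcript, and homozygotes are used to model premature ageing as in Hutchinson-Gilford progeria. The labels name no promoter or Cre that would restrict the allele to a cell type, and RNA came from whole liver. One 1-colour array was hybridised per mouse, so p-values measure the spread between mice.

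AP-1 is not a single protein but a set of dimers that bind DNA through a basic region and hold together through a leucine zipper. Jun proteins pair with themselves or with Fos proteins, Fos proteins need a partner, and ATF, small Maf and BATF proteins join as alternative partners that change which sites are bound and whether transcription is raised or lowered. Most of these genes are silent or low in resting tissue and are switched on within minutes by growth factors, cytokines and stress through MAP kinases. In liver, Jun is known for its part in hepatocyte proliferation during regeneration.

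Of the 10 members, 6 rose in knock-in liver and 0 fell. Maff, Fosl2, Atf3, Jun and Jund each rose more than 2-fold, and Junb rose less. The changes lay between 1.61-fold for Junb and 4.81-fold for Maff. Fos, Fosb, Fosl1 and Batf were not called. Among all 26634 probe sets tested, 14.9% were called higher and 10.9% lower (limma, Benjamini-Hochberg adjusted p below 0.05). The share of 6 in 10 was larger than this background. The members were chosen with earlier results of these data known, so the larger share describes the family and is not independent support. The family's median log2 change was 1.04, against 0.03 over all tested probe sets. Changes of at least 2-fold upwards were found for 5 members, and for 2.68% of all tested probe sets. Knock-in and wild-type values did not overlap for 8 of the 10, with knock-in higher each time, where 23.9% of all tested probe sets had such a separation. All values below are deposited intensities on a linear scale, and log2 changes are knock-in minus wild-type on log2(intensity + 16), which understates the change of dim probe sets. RNA from whole tissue does not separate a change in the number of cells of a type from a change in RNA per cell.

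**Figure D1:**
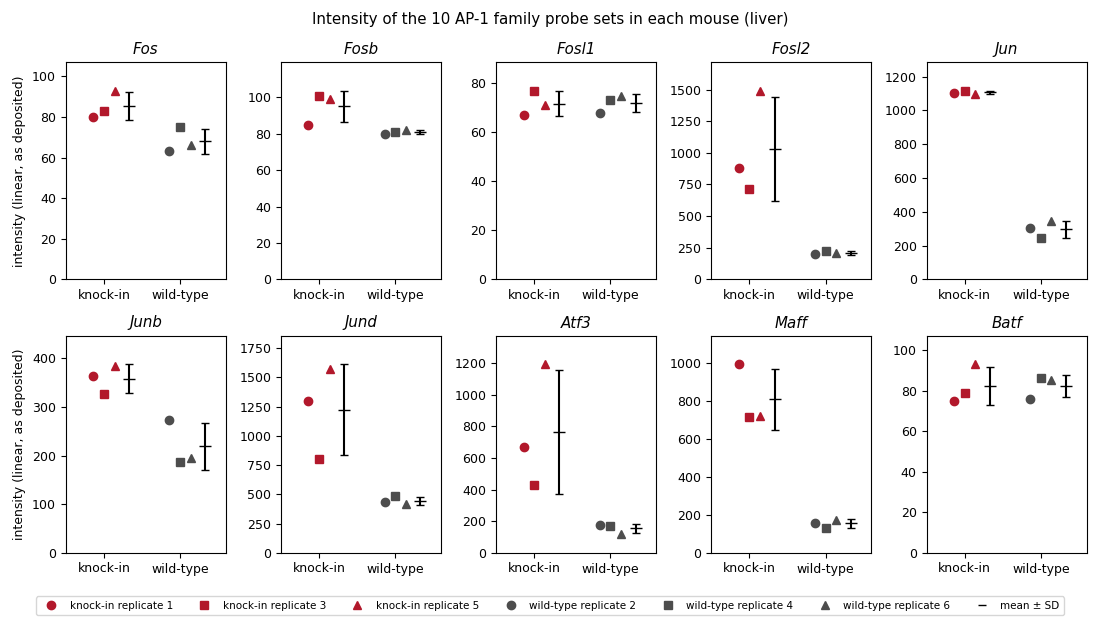
Deposited intensity (vertical axes, linear, each starting at 0) of the 10 family members, with 1 panel per gene and 1 symbol per mouse, knock-in on the left and wild-type on the right. Horizontal ticks with bars are the mean ± SD of 3 mice. Fosl2, Jun, Junb, Jund, Atf3 and Maff are separated between the genotypes and called, while Fos, Fosb, Fosl1 and Batf stay between 63 and 101 in every mouse.

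The Jun subfamily supplies the partner that most AP-1 dimers contain, and all its members rose. Jun, the founding member and a substrate of the Jun N-terminal kinases, read 1104, 1117 and 1100 in the knock-in mice, against 301, 245 and 345 in the wild-type mice. The knock-in readings lay within 17 units of each other, and every one was above every wild-type reading. The log2 change was 1.86 ± 0.13 (SE, n = 3 mice per genotype; 3.62-fold; limma adjusted p = 0.000296). Jund, which is usually present in resting cells and tends to slow proliferation, read 1300, 804 and 1569 in knock-in liver, against 431, 482 and 414 in wild-type liver. Its groups were separate, with knock-in replicate 3 well below the other knock-in mice. The log2 change was 1.39 ± 0.23 (2.61-fold; limma adjusted p = 0.00488). Junb, which often opposes Jun in the control of the cell cycle, read 364, 326 and 385 in knock-in liver, against 274, 187 and 196 in wild-type liver. Wild-type replicate 2 stood above the other wild-type mice and came nearest to the knock-in readings. The log2 change was 0.69 ± 0.15 (1.61-fold; limma adjusted p = 0.0151). The Junb call was lost when knock-in replicate 1 was left out (limma adjusted p = 0.0554). It was also lost when wild-type replicate 4 or 6 was left out (limma adjusted p = 0.0503 and 0.0566), with log2 changes of 0.59 to 0.67 in those 3 fits.

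Among the Fos subfamily, Fosl2 alone was called. Fosl2, which encodes Fra-2, a Fos protein without a strong activation domain, read 878, 712 and 1492 in knock-in liver, against 199, 227 and 205 in wild-type liver. The wild-type mice were close together, and knock-in replicate 5 was the highest of the knock-in mice by a wide margin. The log2 change was 2.14 ± 0.25 (4.40-fold; limma adjusted p = 0.00146), the 56th highest among all tested probe sets. Fos, the classical early response gene, read 80, 83 and 93 in knock-in liver and 63, 75 and 66 in wild-type liver. The groups did not overlap, but the log2 change of 0.27 ± 0.09 missed the threshold (limma adjusted p = 0.0561, 95% interval 0.07 to 0.47). It passed with array weights (adjusted p = 0.0322), with only probe sets of 1 gene in the fit (adjusted p = 0.0347) and when wild-type replicate 4 was left out (adjusted p = 0.0469), and over the other fits its adjusted p reached 0.171. Fosb, whose product is a close relative of Fos, read 85, 101 and 99 in knock-in liver and 80, 81 and 82 in wild-type liver. Its readings were separate as well, with a log2 change of 0.19 ± 0.08 that did not pass (limma adjusted p = 0.130, 95% interval 0.0011 to 0.38). Fosl1, which encodes Fra-1, read 67, 77 and 71 in knock-in liver and 68, 73 and 75 in wild-type liver, and the groups overlapped. Its log2 change was -0.01 ± 0.07 (limma adjusted p = 0.966, 95% interval -0.18 to 0.17).

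The members outside the Jun and Fos subfamilies differed among themselves. Maff, a small Maf protein that has no activation domain and pairs with itself, with Fos and with the NRF and BACH factors, read 993, 713 and 719 in knock-in liver, against 158, 130 and 175 in wild-type liver. Knock-in replicate 1 was the highest, and the lowest knock-in reading was far above the highest wild-type one. Maff changed by 2.27 ± 0.16 on the log2 scale (4.81-fold; limma adjusted p = 0.000327), the 47th highest of all tested probe sets. Atf3, a stress-induced factor that often acts as a repressor, read 667, 427 and 1194 in knock-in liver, against 175, 170 and 121 in wild-type liver. The knock-in mice spread widely, yet all lay above the wild-type mice. Atf3 changed by 2.08 ± 0.34 on the log2 scale (4.22-fold; limma adjusted p = 0.00469). Batf, which pairs with Jun proteins and is known mainly from lymphocytes, read 75, 79 and 93 in knock-in liver and 76, 86 and 85 in wild-type liver. The groups overlapped, with a log2 change of -0.0028 ± 0.09 (limma adjusted p = 0.989, 95% interval -0.22 to 0.21). The 4 members that were not called read between 63 and 101 in every mouse. Detection calls were not used here, so whether these readings lie above the background of the arrays is not known.

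**Figure D2:**
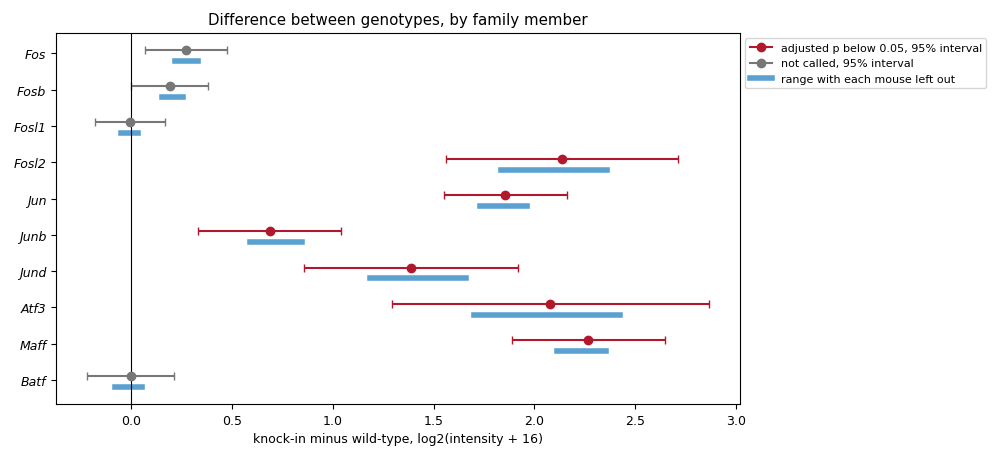
Log2 change of each member (horizontal axis, knock-in minus wild-type, log2(intensity + 16)) with its 95% interval from limma, and the range of the change when each of the 6 mice is left out in turn (thick bars). The 6 called members lie right of 0 in every fit, from 0.59 for Junb without wild-type replicate 4 to 2.42 for Atf3 without knock-in replicate 3.

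Several of these genes are known to be controlled by AP-1, ATF and CREB dimers at their own promoters. The upstream 250 bases of 4 members follow, to show where such motifs lie in genes that rose (Jun, Atf3, Maff) and in Fos, which was not called. They are RefSeq sequences of GRCm38.p6, 5′ to 3′ on the gene's strand and ending just before the annotated start. Capitals mark every match, on either strand, to the motifs named below. The Jun window is chr4:95052223-95052472 (minus strand), that of Atf3 chr1:191183334-191183583 (minus strand), that of the Maff transcript start shown chr15:79347270-79347519 (plus strand) and that of Fos chr12:85473640-85473889 (plus strand).
Jun: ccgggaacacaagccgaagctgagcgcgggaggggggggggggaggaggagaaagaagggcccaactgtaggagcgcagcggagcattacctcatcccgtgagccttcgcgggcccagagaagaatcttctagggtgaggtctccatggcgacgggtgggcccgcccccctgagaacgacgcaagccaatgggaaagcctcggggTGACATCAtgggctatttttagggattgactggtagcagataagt
Atf3: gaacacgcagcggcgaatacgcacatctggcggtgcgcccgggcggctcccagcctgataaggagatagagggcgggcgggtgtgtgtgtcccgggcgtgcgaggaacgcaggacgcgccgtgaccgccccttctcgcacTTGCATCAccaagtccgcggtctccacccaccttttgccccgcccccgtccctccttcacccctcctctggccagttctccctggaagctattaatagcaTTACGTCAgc
Maff: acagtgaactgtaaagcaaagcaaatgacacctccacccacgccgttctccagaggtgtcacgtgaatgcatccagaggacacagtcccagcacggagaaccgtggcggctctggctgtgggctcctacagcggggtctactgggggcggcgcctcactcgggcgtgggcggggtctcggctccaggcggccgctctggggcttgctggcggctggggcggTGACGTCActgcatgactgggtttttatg
Fos: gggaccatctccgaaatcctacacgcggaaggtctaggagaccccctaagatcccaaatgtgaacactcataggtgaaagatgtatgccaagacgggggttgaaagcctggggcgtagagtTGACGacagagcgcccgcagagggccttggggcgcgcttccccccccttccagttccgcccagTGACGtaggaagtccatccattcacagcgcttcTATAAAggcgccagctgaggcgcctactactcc

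The motifs searched were the AP-1 site TGAGTCA, its variant TGACATCA, the cyclic AMP response element TGACGTCA, its variant TTACGTCA, the core TGACG, the composite C/EBP-ATF site TGATGNAA, the TATA box letters TATAAA and the CArG box bound by serum response factor. The core TGACG is contained in TGACGTCA and, on the other strand, in TTACGTCA. Windows were found for 9 of the 10 members, 11 windows in all, of which 3 belonged to Maff. The promoter of Fosl1 was not analysed here. TGACATCA began 45 bases before the start of Jun and also 45 bases before another of the Maff starts, and 2.93% of all 32851 promoter windows held it. TTACGTCA lay 10 bases and TTGCATCA, which matches TGATGNAA on the other strand, 110 bases before the start of Atf3, where 0.447% and 3.45% of all windows held these motifs. TGACGTCA began 29 bases before the Maff start shown, and 1.55% of all windows held it. Fos had TGACG beginning at 129 and at 66 bases before its start, and TATAAA at 33 bases. The core TGACG was found in windows of 6 members and in 17.8% of all windows. Among these 6, Fos, Fosb and Batf were not called and Atf3, Junb and Maff rose. TGAGTCA (4.46% of all windows) and the CArG box (1.47%) had 0 matches in the member windows. The windows of Fosl2 and Jund held 0 matches to any of the motifs. Bases further upstream than 250 were not searched, so 0 matches does not show that a gene's promoter lacks the motif. Other variants of these sites, such as ttacctca in the Jun window, were not searched, so lower-case bases may hold further sites.

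The called members did not rise by equal amounts in the 3 knock-in mice. Knock-in replicate 3 had the lowest reading for 5 of the 6 called members, and the exception was Jun, where replicate 5 was lowest by 4 units. Fosl2, Junb, Jund and Atf3 shared the order replicate 5 above 1 above 3, while Maff was highest in replicate 1. Relative to the wild-type mean, the 6 members averaged a log2 difference of 1.78 in replicate 1, 1.41 in replicate 3 and 2.02 in replicate 5. The median absolute difference over all tested probe sets moved the same way between these mice, at 0.214, 0.170 and 0.224, so replicate 3 was nearer to wild-type across the array as well. The knock-in readings of Atf3 spanned 1.45 on the log2 scale, those of Fosl2 1.05 and those of Jund 0.95, against 0.48, 0.18 and 0.21 for their wild-type readings. Jun ran the other way, spanning 0.02 among knock-in and 0.47 among wild-type mice. The difference in spread was not tested. Without knock-in replicate 3, the family had 6 members called higher and 0 lower.

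**Figure D3:**
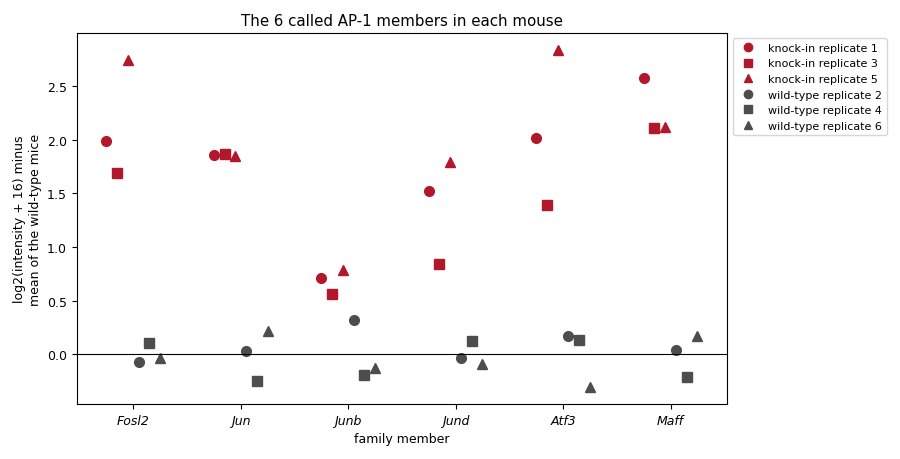
Log2(intensity + 16) of the 6 called members in each mouse, minus the mean of the wild-type mice (vertical axis), with knock-in symbols left of wild-type symbols for each gene. Knock-in replicate 3 (red squares) is the lowest knock-in mouse for every member shown but Jun, whose knock-in mice coincide.

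Genes with the profile most like that of a member over the 6 mice were sought for the 3 called members with the largest change. The measure was the mean absolute difference of log2 values, each taken relative to its own wild-type mean. Nearest to Maff were Tfrc, the transferrin receptor gene (0.152), the protease gene Tmprss2 (0.160) and Chic2 (0.169). Tfrc read 675, 582 and 705 in knock-in liver, against 141, 116 and 176 in wild-type liver. Nearest to Fosl2 were Map2k6, Rnf144a and Crcp (0.132 to 0.135). Map2k6 encodes a kinase that activates p38 MAP kinases. Nearest to Atf3 were Irs2, an adaptor of the insulin receptor (0.177), Rnd1 (0.189) and again Rnf144a (0.201). Irs2 read 2553, 1473 and 3074 in knock-in liver, against 470, 462 and 362 in wild-type liver. Its knock-in mice had the same order as for Atf3, which a choice by likeness over these same mice favours.

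Other genes of the AP-1 circuit were taken from 6 lists, with 1 probe set per gene. Their changes are given on the log2 scale unless a fold is named. The lists were likewise chosen with earlier results of these data known, so a share above that of all tested probe sets is descriptive only. All tested probe sets include some without a gene symbol. With only probe sets of 1 gene in the fit, lower calls slightly outnumbered higher ones. Of 14 tested factors that act on the Fos and Jun promoters, 9 were higher (64.3%, against 14.9% of all tested probe sets) and 0 lower, with a median log2 change of 0.49. Crem, which encodes activators and repressors at cyclic AMP response elements, changed by 1.02 ± 0.20 (limma adjusted p = 0.0104). The CREB coactivator gene Crtc2 changed by 1.01 and Elk1, a MAP kinase target that binds with serum response factor, by 0.91. Mkl2, a coactivator of serum response factor, changed by 0.65. The number of these factors that were called higher was 5 when either knock-in replicate 1 or wild-type replicate 6 was left out. Serum response factor itself, Srf, read 426, 379 and 453 in knock-in liver, against 323, 351 and 323 in wild-type liver, and its log2 change of 0.32 did not pass (adjusted p = 0.0575; chosen after its values were seen).

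Of 23 tested genes of the MAP kinase cascades, 5 rose (21.7%, against 14.9% of all tested probe sets) and 2 fell (8.7%, against 10.9%), with a median log2 change of 0.09. Map2k6 had the largest rise, reading 2065, 1329 and 2697 in knock-in liver against 403, 491 and 487 in wild-type liver. It changed by 2.05 ± 0.24 on the log2 scale (4.14-fold; limma adjusted p = 0.00152). Map3k5, a stress-activated kinase upstream of p38 and the Jun N-terminal kinases, changed by 1.05, Braf by 0.91 and Map3k1 by 0.73. Map2k3, the other main p38 activator, fell by 0.72 on the log2 scale and Map3k4 fell by 0.37. Map3k4 lost its call when knock-in replicate 3, knock-in replicate 5 or any wild-type mouse was left out (adjusted p = 0.0608 to 0.121). Jun N-terminal kinase genes Mapk8 and Mapk9 did not pass (log2 changes of 0.22 and -0.02; chosen after their values were seen). Of the 32 genes listed, 8 were not matched to a probe set with a single symbol and were not analysed here.

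Among 18 tested bZIP genes that can pair with AP-1 or Maf proteins, 5 rose (27.8%, against 14.9% of all tested probe sets), 2 fell (11.1%, against 10.9%) and 11 were not called, with a median of 0.02. Bach2, a repressor that pairs with small Maf proteins, changed by 1.66 ± 0.15 (3.15-fold; limma adjusted p = 0.000721). The small Maf gene Mafk changed by 0.81, Atf4 by 0.80 and Atf2 by 0.37. Nfe2l2, which encodes NRF2, a partner of small Maf proteins, read 548, 668 and 485 in knock-in liver against 1982, 1945 and 1653 in wild-type liver. It fell by 1.69 ± 0.14 on the log2 scale (3.23-fold lower; limma adjusted p = 0.000492). Its relative Nfe2l1 fell by 1.02 on the log2 scale. When knock-in replicate 1, wild-type replicate 2 or wild-type replicate 6 was left out, 3 were higher and 1 lower, and Nfe2l1 and Atf2 lost their calls (adjusted p = 0.0506 to 0.102).

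Genes of AP-1 RNA and protein turnover gave 3 higher (23.1%, against 14.9% of all tested probe sets) and 1 lower (7.69%, against 10.9%) of 13 tested, with a median of 0.24. Zfp36, which encodes tristetraprolin, a protein that binds AU-rich messages and speeds their decay, read 1638, 1711 and 2014 in knock-in liver against 691, 967 and 968 in wild-type liver (log2 change 1.03 ± 0.16; limma adjusted p = 0.00363). Its relative Zfp36l2 changed by 1.19, the ubiquitin ligase gene Itch by 0.36 and Det1 by -0.43. Itch lost its call when either knock-in replicate 1 or wild-type replicate 6 was left out (adjusted p = 0.0569 and 0.0588). Without knock-in replicate 3, 6 were called higher.

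Described AP-1 targets moved in both directions. Of 18 tested, 4 rose (22.2%, against 14.9% of all tested probe sets) and 2 fell (11.1%, against 10.9%), with a median of 0.11, and 8 more matched genes were below the filter. Hmox1, heme oxygenase 1, read 905, 1171 and 578 in knock-in liver against 351, 321 and 247 in wild-type liver (log2 change 1.44 ± 0.25; limma adjusted p = 0.00620). The growth factor gene Hbegf changed by 0.93 and the urokinase receptor gene Plaur by 0.51. Mmp9 changed by 0.37, a call that 4 single mice each decided (knock-in replicates 1 and 5, wild-type replicates 2 and 4; adjusted p = 0.0510 to 0.0579 with each left out). Mmp9 was also dim, reading 95, 83 and 102 in knock-in liver against 68, 66 and 71 in wild-type liver. Ccnd1, the cyclin D1 gene that Jun is known to activate, moved the other way, reading 155, 225 and 177 in knock-in liver against 2723, 2065 and 2070 in wild-type liver. It fell by 3.52 ± 0.17 on the log2 scale (11.4-fold lower; limma adjusted p = 7.76e-05). Vim fell by 0.49 on the log2 scale. It kept its call when knock-in replicate 3 was left out, but lost it with any other mouse left out (adjusted p = 0.0716 to 0.114) and with no filter (adjusted p = 0.0538).

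Early response genes outside the family are switched on by many of the same stimuli. Of 36 tested, 20 rose (55.6%, against 14.9% of all tested probe sets) and 2 fell (5.56%, against 10.9%). Their median log2 change was 0.80. Zfp36 is in this list as well. Btg2 (13.5-fold), Nr4a1 (12.5-fold), Gadd45g (11.1-fold) and Gadd45b (8.42-fold) had the largest rises. Nr4a1 read 2154, 776 and 2921 in knock-in liver against 110, 161 and 100 in wild-type liver, with replicate 3 the lowest knock-in mouse, as for most called AP-1 members. Klf10 was 2.83-fold and Cyr61 2.33-fold lower. Cyr61 is a target of serum response factor and YAP, and read 112, 89 and 130 in knock-in liver against 386, 277 and 196 in wild-type liver.

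**Figure D4:**
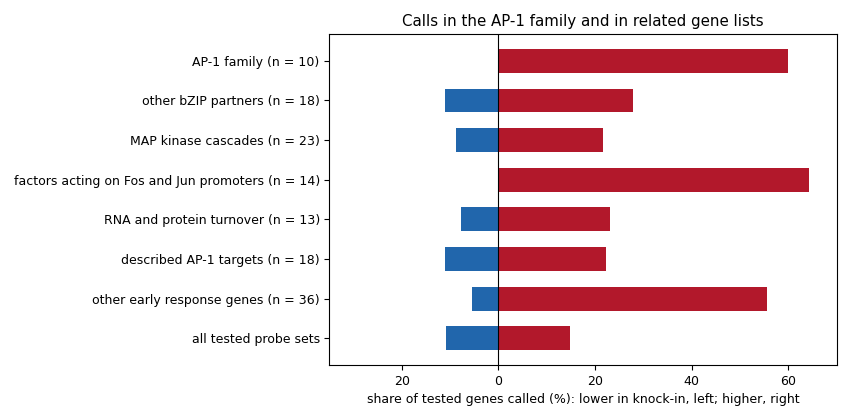
Share of tested genes called (horizontal axis, percent; higher in knock-in to the right, lower to the left) in the AP-1 family, in 6 lists of related genes and over all tested probe sets. The family (60% higher, 0 lower), the promoter factors (64.3% and 0) and the other early response genes (55.6% and 5.56%) have longer right-hand bars than all tested probe sets (14.9% and 10.9%). The family and the lists were chosen with earlier results of these data known.

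Array medians lay between 97.0 and 104, the range on the log2 scale was 0.087, and values were used as deposited. Liver identity was borne out by hepatocyte markers, which summed to 111903 to 119389 in knock-in and 106134 to 109271 in wild-type mice. Of these, 2 of 8 were higher (25%, Hnf4a and Tat) and 0 lower. Tat lost its call without knock-in replicate 1 (adjusted p = 0.0507). Over all tested probe sets, 14.9% were called higher and 10.9% lower. With so few markers per cell type, the counts in this paragraph do not by themselves show a shift of a cell type. Neutrophil markers summed to 707 to 728 in knock-in and 533 to 602 in wild-type mice. Of 8 tested, 2 were higher (25%, Retnlg and S100a8), 0 lower and 6 not called. Retnlg read 96, 76 and 89 in knock-in liver, against 34, 37 and 34 in wild-type liver. S100a8 read 72, 68 and 73 in knock-in liver, against 51, 45 and 46 in wild-type liver. These readings lay under the array medians, and whether they are above the background of the arrays is not known. Kupffer cell and macrophage markers summed to 3992 to 6926 in knock-in and 5728 to 9678 in wild-type mice. Of 13 tested, 0 were higher and 2 lower (15.4%, Adgre1 and Aif1). Both macrophage calls rested on single mice (knock-in replicates 1 and 5, wild-type replicates 2 and 4; adjusted p = 0.0523 to 0.127 with each left out). Adgre1 missed the threshold under 3 other settings too, namely array weights, a robust prior and testing without a filter (limma adjusted p = 0.0640, 0.0503 and 0.0744). Of 6 tested T and NK cell markers 0 were called, with sums of 531 to 559 in knock-in and 522 to 588 in wild-type mice. Of 5 tested B cell markers 1 was lower (20%, Cd79b), with sums of 328 to 380 in knock-in and 405 to 453 in wild-type mice. Endothelial markers gave 1 higher (10%, Lyve1) and 3 lower (30%, Clec4g, Kdr and Stab2) of 10. Their sums were 6431 to 8749 in knock-in and 7918 to 8280 in wild-type mice. Lyve1 lost its call without knock-in replicate 5 (adjusted p = 0.0656). Kdr and Stab2 lost theirs when knock-in replicate 1, wild-type replicate 2 or wild-type replicate 6 was left out (adjusted p = 0.0528 to 0.0593 for Kdr and 0.0783 to 0.0912 for Stab2). Clec4g lost its call when any mouse but knock-in replicate 3 was left out (adjusted p = 0.0667 to 0.130) and when low probe sets were kept (adjusted p = 0.0669). Stellate cell markers gave 1 higher (10%, Dcn) and 1 lower (10%, Lrat) of 10. Their sums were 8162 to 9655 in knock-in and 7317 to 8371 in wild-type mice. Dcn made up most of these sums, at 6731, 6736 and 5978 in knock-in liver against 4891, 4225 and 4704 in wild-type liver. The sums therefore mainly follow Dcn, and the median log2 change of the 10 stellate cell markers was -0.08. Lrat read 312, 441 and 247 in knock-in liver, against 876, 719 and 653 in wild-type liver. Cholangiocyte markers gave 0 calls of 5 tested, with sums of 458 to 481 in knock-in and 454 to 489 in wild-type mice. No marker was listed at 0, but no deposited value was under 7, and B cell markers read down to 14. Whether the dimmest markers were detected is not known. The part of these cells in the changes of the AP-1 members was not tested. The Lmna probe set did not differ between the genotypes at the threshold (log2 change -0.17 ± 0.13; limma adjusted p = 0.398), and since it gives 1 value for the gene it does not check the allele.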

How the data were processed

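Liver RNA of 3 knock-in and 3 wild-type mice was hybridised to 1-colour arrays after biotin labelling by in vitro transcription, per the labels' protocols. The authors deposited 1 intensity per probe set and array, in whole numbers from 7 to 24988 on a linear scale. Their summarisation and normalization steps are not recorded in the headers or labels. Columns were matched to mice by sample identifier, and 0 pairs of arrays were identical. Gene symbols came from GEO's platform annotation, which can be old (21789 with 1 symbol, 1621 with several, 12102 not listed).

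Intensities were transformed as log2(value + 16). Probe sets with a mean log2 value under the 25th percentile were dropped. The 26634 others entered limma 3.58.1 (R 4.3.3; lmFit, eBayes with a mean-variance trend), two-sided and with wild-type subtracted from knock-in, with Benjamini-Hochberg adjustment over all of them and a threshold of 0.05. All 10 members passed the filter. Errors are standard errors for log2 changes. A list gene with several probe sets used the brightest one. In simulated data of 26634 probe sets in this layout, the recovery was 13.3% for log2 changes of 0.5, 71.4% for 1 and 93.3% for 2. Few probe sets changed there, and adjustment is then stricter than in the real data. The number of arrays limits the precision.

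The members and lists were chosen with earlier results of these data known. All members are named; from each list up to 4 called genes per direction with the largest change are named, other genes only where said. The alternatives tried were a pseudocount of 1 or of 64, quantile normalization, median-centred arrays, a filter at the 50th percentile or none, no trend, a robust prior, array weights, only probe sets with 1 gene, a threshold of 0.1, and each mouse left out. Figures were drawn with matplotlib 3.10.9.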

Additional observations from a re-analysis of the deposited data

How the results depend on the processing

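No paired analysis was possible because the genotypes share no replicate numbers. Leaving out 1 mouse at a time, the family had 5 to 6 members higher and 0 lower. Fosl2, Jun, Jund, Atf3 and Maff were called in every alternative and without every mouse, with log2 changes of 1.84 to 2.36, 1.73 to 1.96, 1.18 to 1.66, 1.70 to 2.42 and 2.11 to 2.35 over the mice left out. Junb (0.59 to 0.85) lost its call without 3 of the 6 mice. Fos (0.22 to 0.33 over the mice left out) was called with array weights (log2 change 0.28), with only probe sets of 1 gene (0.27) and at a threshold of 0.1 (0.27). Fosb, Fosl1 and Batf were called in no alternative, and the near-zero changes of Fosl1 and Batf took either sign.

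Of all tested probe sets, 2442 to 4277 were higher and 1810 to 3451 lower with 1 mouse left out. With only probe sets of 1 gene, 2637 of 17643 were higher and slightly more were lower, so calls did not lean upwards there. The members and lists come from such probe sets, so 10.9% is a low baseline for their lower shares. Calls split 57.7% upwards as reported and 47.7% upwards (3119 higher, 3424 lower) with median-centred arrays, where the median of tested probe sets was -0.02 and not 0.03. For the lists, leaving out 1 mouse gave 3 to 4 higher and 1 to 2 lower bZIP partners, 4 to 7 higher and 1 to 2 lower MAP kinase genes, 5 to 9 higher and 0 to 1 lower promoter factors, 2 to 6 higher turnover genes, 3 to 5 higher and 1 to 3 lower AP-1 targets, and 19 to 21 higher and 2 lower early response genes. For promoter factors, 1 was lower with quantile normalization, centred arrays, the filter at the 50th percentile, no trend, array weights, only probe sets of 1 gene and a threshold of 0.1. Higher turnover genes numbered 5 with the filter at the 50th percentile, no trend and only probe sets of 1 gene, and 6 with array weights and a threshold of 0.1. AP-1 targets had 7 higher at a threshold of 0.1 and 1 lower with no filter. The causes were not tested. Of 56 other genes followed through these settings, 13 lost a call in at least 1 alternative and 0 reversed. These included Cd3g, Cd247, Krt7 and Epcam, which are not named above, but not Srf, Mapk8 and Mapk9. Fos, Fosb, Fosl1 and Batf were not tested with the filter at the 50th percentile, since they lay below it.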
